A study of Mus musculus with 12 samples.

Results

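Hair follicle dermal stem cells were compared with cells labelled interfollicular dermis, both sorted from mouse back skin. The comparison used 6 of the 12 libraries of the study, 3 for each population. It took in every gene with at least 1 FPKM (fragments scaled by transcript length and library size) in at least 3 of those 6 libraries, which was 11898 of the 24692 entries of the deposited table, whatever their difference. All animals were male Sox2:GFP/aSMA:dsRed mice of about postnatal day 26 to 27, with back skin in early anagen, the start of a hair growth phase. Sox2:GFP is a green reporter driven by Sox2, and aSMA:dsRed is a red reporter driven by the promoter of smooth muscle actin, the gene Acta2. No treatment separates the populations, and the labels do not say which reporter or antibody signal defined each of them, or whether libraries came from separate animals. The p-values therefore measure only the spread between these libraries. The other 6 libraries, from dermal papilla and dermal sheath of mice of the same genotype and age, served to estimate that spread. The dermal stem cell libraries are replicates 1, 2 and 4 and the interfollicular ones are replicates 1, 2 and 6, and 3 values in a row follow that order.

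Dermal stem cells sit at the base of the hair follicle, in the cup of mesenchyme that surrounds the papilla. They renew the dermal sheath, a sleeve of contractile cells around the follicle, and supply cells to the papilla over successive hair cycles. The dermis away from follicles is mostly matrix, laid down by fibroblasts as collagen and elastic fibres. In early anagen the follicle epithelium divides quickly and exchanges signals with the mesenchyme, Sonic hedgehog and Wnt proteins among them.

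The libraries labelled interfollicular dermis held fewer fibroblast transcripts and more epithelial ones than the dermal stem cell libraries. Vim, the intermediate filament of mesenchymal cells, was at 1573, 1445 and 2095 FPKM in the dermal stem cell libraries and 132, 129.6 and 154 FPKM in the interfollicular ones. Pdgfra, a receptor that marks dermal fibroblasts, was at 49, 48.9 and 70.6 FPKM against 3.32, 2.24 and 4.95 FPKM. Both genes were lower in all 3 interfollicular libraries than in any dermal stem cell library, though Vim stayed above 100 FPKM there. Such a separation, with dermal stem cells above, held for 23.6% of all genes tested. Of 20 fibroblast markers, 19 passed as higher in dermal stem cells, where 18.8% of all genes tested did, and so did 18 of 20 markers of interfollicular fibroblasts. In this the markers went against the label. Trp63, the transcription factor of basal keratinocytes, was at 9.23, 20.8 and 16.4 FPKM in dermal stem cells and 98.1, 75.8 and 93.2 FPKM in the libraries labelled interfollicular dermis. The basal keratins followed the same order, with Krt5 at 96.1, 179 and 79.4 FPKM against 305, 430.5 and 398 FPKM and Krt14 at 69.3, 98.9 and 38 FPKM against 182, 266 and 229 FPKM. The fibroblast markers summed to 15140, 14930 and 20070 FPKM in dermal stem cells and 1066, 1598 and 2123 FPKM in interfollicular dermis, and the 12 basal keratinocyte genes to 426, 813 and 394 FPKM against 1326, 1422 and 1522 FPKM. Transcripts of both lineages were thus present in both populations, in different proportions. The dermal sheath libraries resembled the interfollicular ones, with fibroblast sums of 1323, 2488 and 1412 FPKM and basal keratinocyte sums of 1504, 1477 and 1710 FPKM, while papilla had fibroblast sums of 33800, 19580 and 29400 FPKM. Whether labels or columns were exchanged cannot be told from the sources used here, and all populations are called by their labels. In bulk libraries such as these, fewer cells of a type and less RNA per cell cannot be told apart.

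Across the 11898 genes tested, the Pearson correlation of log2(FPKM + 1) averaged 0.922 over the 3 pairs of dermal stem cell libraries and 0.913 over the 3 interfollicular pairs. It averaged 0.638 over the 9 pairs between the populations, 0.84 between dermal stem cells and papilla and 0.875 between interfollicular dermis and sheath. These are correlations across genes, which are not independent replicates. FPKM summed to between 181683 and 262695 per library, and 11033 to 11810 entries reached 1 FPKM. Sequencing depth is not known in reads. Depth relative to dermal stem cells replicate 2, read from the spacing of the lowest values, ran from 0.727 to 1.93 and is approximate.

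Between dermal stem cells and interfollicular dermis, 4740 of the 11898 genes differed at an adjusted p under 0.05 (39.8%), with 2232 higher in dermal stem cells (18.8%) and 2508 lower (21.1%). Of these, 3530 differed by at least 2-fold (29.7%). The test was limma on log2(FPKM + 1) with Benjamini-Hochberg adjustment over all genes tested, and below, higher, lower and called mean past that threshold. Counts of list members given below stand beside the shares of all genes tested, 18.8% higher and 21.1% lower. Differences upward were larger: 843 genes were called with at least a 4-fold higher value in dermal stem cells (7.09%) and 312 with at least a 4-fold lower one (2.62%). The median log2 fold change over all genes tested was -0.15. When each library was scaled to the same total, that median moved to -0.46 and the calls became 1686 higher and 3470 lower. The 3 libraries of one population lay wholly above the 3 of the other for 6485 genes (54.5%), dermal stem cells above for 2807 (23.6%) and interfollicular dermis above for 3678 (30.9%). Of the 4740 genes called, 4611 were separated in this way, so separation adds little to a call. It was also a condition for the 15 most changed genes named in each direction. Genes called higher held 51.0%, 45.4% and 51.9% of all FPKM in the dermal stem cell libraries, against 10.8%, 10.9% and 14.6% in the interfollicular ones. Genes called lower held 9.15%, 12.6% and 11.1% against 37.0%, 36.4% and 32.5%.

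**Figure D1:**
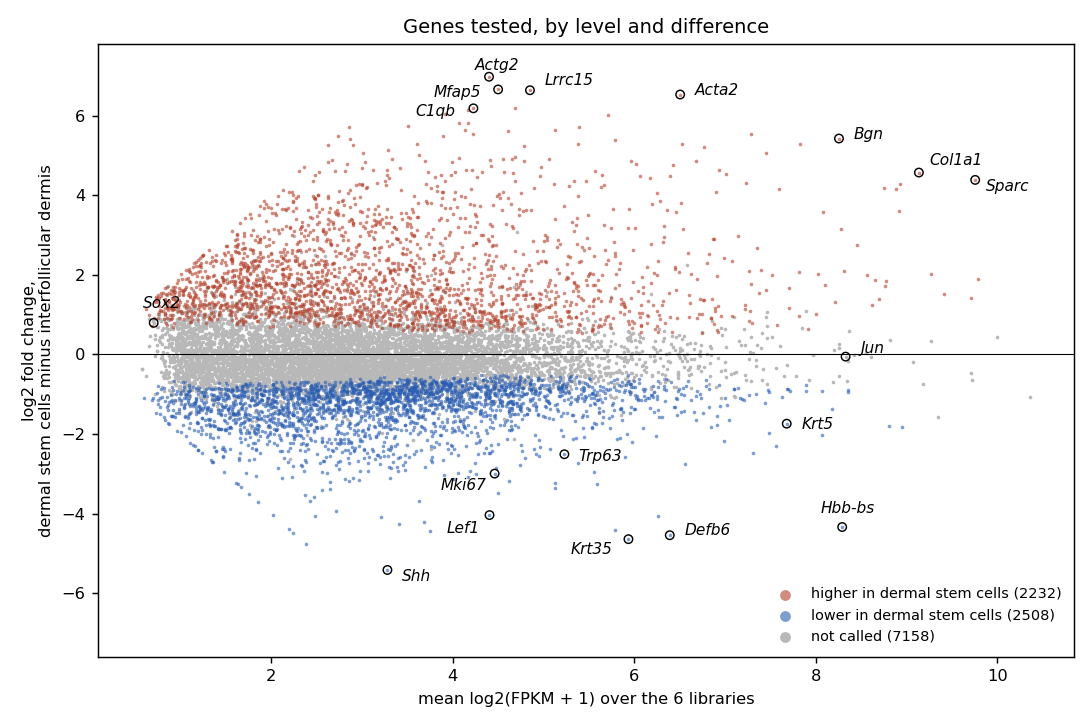
Each point is 1 of 11898 genes, with its mean log2(FPKM + 1) over the 6 libraries on the x axis and the log2 fold change, dermal stem cells minus interfollicular dermis, on the y axis; red and blue mark genes past an adjusted p of 0.05 in limma. Smooth muscle actins and matrix genes lie at the top, and Shh lies lowest among the genes above 0 FPKM in all 6 libraries.

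Smooth muscle actins were among the genes with the largest excess in dermal stem cells, with Actg2 first and Acta2 behind Mfap5 and Lrrc15. Positions are those of RefSeq's GRCm38.p6, the build the processing notes call mm10. Actg2 (chromosome 6, 83512909 to 83536251), the gamma actin of smooth muscle, was at 240.2, 228 and 239 FPKM in dermal stem cells and 0.194, 1.54 and 1.19 FPKM in interfollicular dermis. Its log2 fold change was 6.98 (SE 0.35, adjusted p 1.0e-07). Acta2 itself (chromosome 19, 34240336 to 34255585) was at 866, 901 and 849.8 FPKM against 5.72, 10.4 and 9.95 FPKM, a log2 fold change of 6.53 (SE 0.45, adjusted p 7.1e-07). The 3 dermal stem cell libraries lay close together and far above the others for both genes. The mice carry a reporter on the Acta2 promoter, and whether its signal was used to sort these cells is not given in the labels. The other reporter gene, Sox2, was at 1.15, 1.17 and 1.11 FPKM against 0.26, 0.345 and 0.117 FPKM, and its log2 fold change of 0.79 did not pass (95% interval -0.09 to 1.68, adjusted p 0.14). The Sox2 libraries did not overlap, as for 54.5% of all genes tested, and all were under 2 FPKM. The gene passed when the fit held only the 6 libraries compared (adjusted p 0.021, where all settings gave 0.021 to 0.43 in limma).

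The wider contractile apparatus followed the actins. Of 25 smooth muscle contractile genes tested, 24 were higher in dermal stem cells and 0 lower, with a median log2 fold change of 3.0. Myl9, a myosin regulatory light chain, was at 640.1, 735 and 628 FPKM against 13, 24.7 and 14.8 FPKM (5.22 on the log2 scale). Tagln, an actin-binding protein of smooth muscle, was at 547, 600 and 584 FPKM against 8.01, 19 and 16.9 FPKM (5.29). The contractile proteins of mature vascular muscle were present at lower levels and varied more between libraries. Myh11, the smooth muscle myosin heavy chain, was at 73.6, 92.8 and 26.4 FPKM against 0.194, 2.4 and 5.35 FPKM, and Des, the intermediate filament desmin, was at 72.3, 69.7 and 19.3 FPKM against 0.876, 1.78 and 4.1 FPKM. Both were lowest in dermal stem cells replicate 4, which still exceeded every interfollicular library. The pericyte and vascular muscle list, which shares members with this one, had 6 of 9 genes higher, with sums of 305, 317 and 184 FPKM against 12.4, 22.8 and 52.1 FPKM. Srf, the transcription factor that drives contractile genes through the CArG box, was the contractile list member that was not called, at 13.1, 13.5 and 11.2 FPKM against 8.87, 14.6 and 16 FPKM (95% interval of the log2 fold change -0.58 to 0.53).

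Promoters from RefSeq (GRCm38.p6) were searched for the CArG box, the binding element of serum response factor, in windows of 250 bases before to 50 after each start, on both strands. A window was found for 21 of the contractile genes, 23 windows in all, and 17.4% of those held the box, against 1.35% of the 11761 windows of all genes tested. The matches lay in 4 genes, Myl9, Cnn2, Vcl and Srf. The first 3 are shown because they combine the motif with a higher level in dermal stem cells. Cnn2, Vcl and Srf were named for their motif, after their values were seen. All 3 lie on the plus strand, at chr2:156775214-156775513, chr10:79988350-79988649 and chr14:20929148-20929447, and capitals mark the CArG box.
Myl9: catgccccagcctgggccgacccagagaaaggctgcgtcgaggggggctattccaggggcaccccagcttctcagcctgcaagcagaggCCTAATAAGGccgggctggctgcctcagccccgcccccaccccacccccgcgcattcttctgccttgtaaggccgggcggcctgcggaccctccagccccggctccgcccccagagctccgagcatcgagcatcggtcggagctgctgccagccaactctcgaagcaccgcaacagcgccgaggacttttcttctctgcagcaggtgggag
Cnn2: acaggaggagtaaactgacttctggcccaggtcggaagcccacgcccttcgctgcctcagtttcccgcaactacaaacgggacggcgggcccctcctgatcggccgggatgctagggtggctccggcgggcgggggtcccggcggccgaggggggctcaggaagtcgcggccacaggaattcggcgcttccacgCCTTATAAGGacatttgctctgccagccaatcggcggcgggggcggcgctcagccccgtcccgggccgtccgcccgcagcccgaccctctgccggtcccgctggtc
Vcl: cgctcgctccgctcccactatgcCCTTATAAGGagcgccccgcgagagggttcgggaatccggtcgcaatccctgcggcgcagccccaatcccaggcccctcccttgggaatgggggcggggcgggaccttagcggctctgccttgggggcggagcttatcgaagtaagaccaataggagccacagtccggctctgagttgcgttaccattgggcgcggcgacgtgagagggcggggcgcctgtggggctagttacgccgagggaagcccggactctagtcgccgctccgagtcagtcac
Cnn2, a calponin, was at 52.8, 51.3 and 64.3 FPKM against 5.7, 9.47 and 4.14 FPKM (3.0 on the log2 scale), and Vcl, the adhesion protein vinculin, was at 82.8, 76 and 94.6 FPKM against 21.5, 17.3 and 29 FPKM (1.88). The box reads the same letters, CCTTATAAGG, in Cnn2 and Vcl, and CCTAATAAGG in Myl9. A match in the letters shows neither binding nor a cause of the level.

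Markers reported for the sheath and dermal stem cells overlap this contractile set. Of 16 tested, 14 were higher and 0 lower, with a median log2 fold change of 3.69. Lrrc15 (chromosome 16, 30269302 to 30283254), a membrane protein of matrix-producing mesenchyme, was at 265, 195 and 456 FPKM against 1.23, 2.48 and 2.11 FPKM (6.64, SE 0.39, adjusted p 2.3e-07). Itga8, an integrin subunit long used as a sheath marker, was at 18.7, 22.1 and 23.9 FPKM against 0.862, 0.415 and 0.993 FPKM (3.69). Igfbp2, a binding protein for insulin-like growth factors, was at 83.2, 129 and 191 FPKM against 0.771, 4.04 and 7.84 FPKM (4.90). No library of one population reached the range of the other for these genes, and dermal stem cells lay wholly above for 23.6% of all genes tested. Markers of the dermal papilla were higher about as often as all genes, 4 of 26 where 18.8% of all genes tested were. Lef1 was the 1 marker lower, where 21.1% of all genes were. Without dermal stem cells replicate 4 the counts were 2 and 2. Corin, a protease of the papilla, was at 106, 61.9 and 104 FPKM against 4.35, 4.73 and 15 FPKM (3.50).

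**Figure D2:**
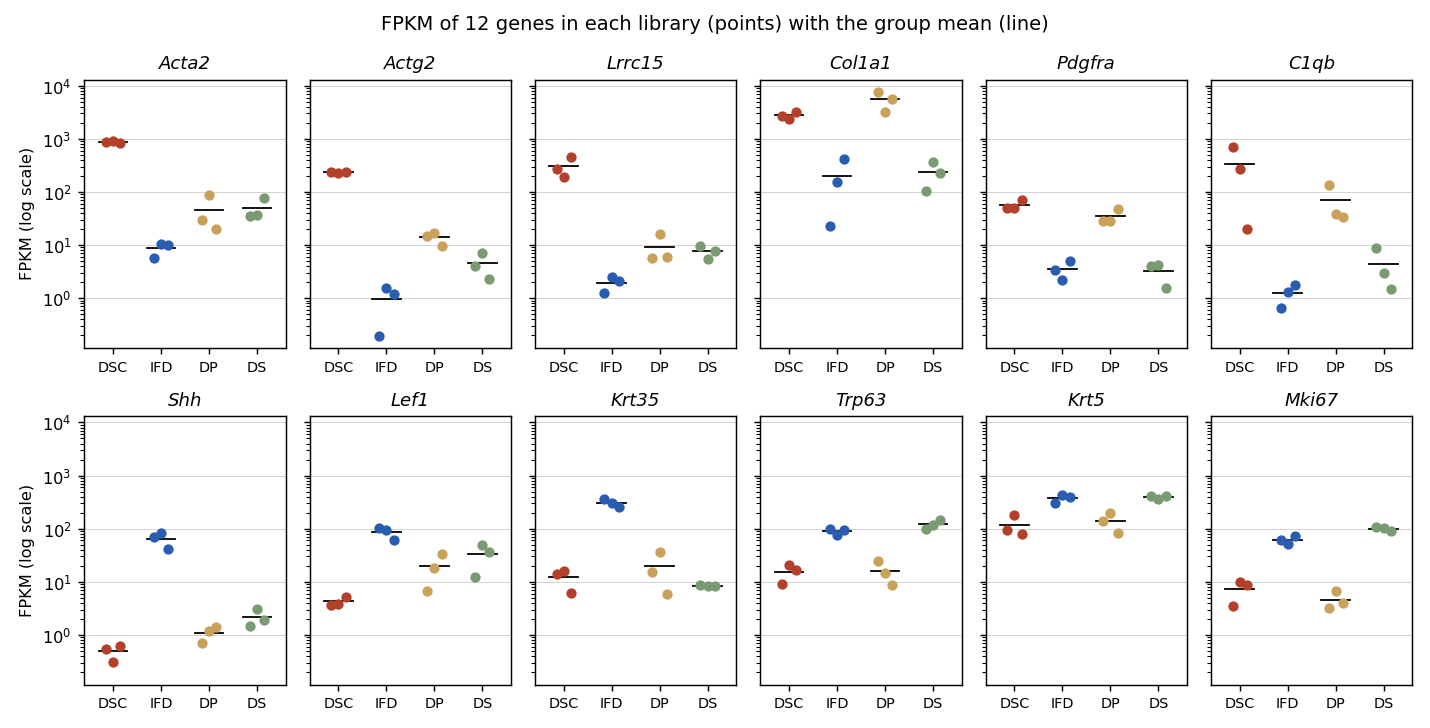
FPKM on a log axis in each of the 12 libraries for 12 genes, with points for libraries and a line for the group mean; DSC is dermal stem cells, IFD interfollicular dermis, DP dermal papilla and DS dermal sheath. Acta2, Actg2, Lrrc15, Col1a1, Pdgfra and C1qb are higher in every DSC library than in any IFD library, and Shh, Lef1, Krt35, Trp63, Krt5 and Mki67 are lower in every DSC library. DSC and IFD are separate in this way, in either direction, for 54.5% of all genes tested.

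Collagen genes were among the most abundant genes that separated the populations. All 11 tested fibrillar and fibril-associated collagen genes were higher in dermal stem cells, with a median log2 fold change of 3.78 and a range of 2.04 to 5.01. Their FPKM summed to 6322, 6440 and 8331 in dermal stem cells and 109.8, 432 and 1055 in interfollicular dermis. Col1a1, a chain of type I collagen, was at 2639, 2405 and 3230 FPKM against 23.2, 152 and 415 FPKM (4.57, SE 0.81, adjusted p 8.8e-04). Col3a1, the chain of type III collagen, was at 1677, 1813 and 2020 FPKM against 36, 95 and 292 FPKM (4.18). The interfollicular libraries differed among themselves more than the dermal stem cell libraries did, and replicate 1 held the least collagen RNA. Col11a1, a minor fibril chain, had the largest fold difference of the list, at 44.5, 47.8 and 152 FPKM against 0.712, 1.58 and 1.31 FPKM (5.01), and was highest in dermal stem cells replicate 4.

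The enzymes and chaperones that mature collagen were higher with it, 26 of 29 tested and 0 lower (median 2.36). Sparc, a collagen-binding chaperone and matrix protein, was the most abundant, at 3518, 3417 and 5113 FPKM against 93, 187 and 382 FPKM (4.38). Pcolce, which helps to cleave procollagen, was at 458, 408 and 469.9 FPKM against 9.51, 17.1 and 22.9 FPKM (4.75). Lox, the lysyl oxidase that crosslinks collagen and elastin, was at 42.8, 50.1 and 84.1 FPKM against 0.8, 1.44 and 6.27 FPKM (4.18). Each of these 3 genes was higher in all dermal stem cell libraries than in any interfollicular one, as were 23.6% of all genes tested. Creb3l1, a transcription factor of the secretory pathway that acts on collagen genes, was at 60.8, 55.5 and 85.9 FPKM against 1.72, 3.31 and 5.73 FPKM (3.97).

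Elastic fibre genes showed the same direction with an exception. Of 19 tested, 14 were higher and 1 was lower (median 3.0). Mfap5, a microfibril glycoprotein, was at 229, 191 and 264 FPKM against 0.453, 1.5 and 2.13 FPKM (6.66, SE 0.33, adjusted p 1.0e-07), and Fbn1, the microfibril scaffold fibrillin, was at 83.7, 79 and 132 FPKM against 2.35, 3.43 and 11.4 FPKM (4.09). The exception was Mmrn1, a multimerin known from endothelium and platelets, at 0.666, 0.78 and 1.17 FPKM against 15.8, 10.6 and 13.8 FPKM (-2.94). Among proteoglycans and matricellular proteins 27 of 32 were higher and 0 lower (median 2.96). Bgn, the small proteoglycan biglycan, was at 2058, 1448 and 2683 FPKM against 36.9, 49.7 and 51.6 FPKM (5.42), and Postn, periostin, was at 689.8, 1037 and 1667 FPKM against 20.4, 11.7 and 44 FPKM (5.53). Omd and Ogn, keratan sulphate proteoglycans, had log2 fold changes of 5.81 and 5.63. Ccdc80, a matrix protein, was at 409, 333 and 547 FPKM against 2.38, 6.03 and 10.4 FPKM (6.03), which placed it among the 15 largest excesses of the comparison.

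Basement membrane genes of mesenchyme and of epithelium went in opposite directions. Of 14 listed as mesenchymal, 13 were higher in dermal stem cells and 0 lower (median 3.08). The type VI collagen genes, which link the basement membrane to the matrix, stood near the top, with Col6a1 at 288, 268 and 487 FPKM against 5.1, 11.9 and 19.1 FPKM (4.85). Of 16 genes of the epithelial basement membrane and hemidesmosome, 0 were higher and 6 were lower (median -1.03), and 1 was higher without interfollicular dermis replicate 6. Lama5, a laminin chain of epithelial basement membranes, was at 3.85, 5.71 and 3.11 FPKM against 8.87, 13.9 and 21.2 FPKM (-1.54). Integrins followed a similar line, with 8 of 16 higher. Itga11, the collagen-binding integrin of fibroblasts, was at 54.1, 37.4 and 47.1 FPKM against 0.35, 0.505 and 0.331 FPKM (5.07). The only integrin lower was Itgb4, of the hemidesmosome, at 3.9, 4.95 and 2.8 FPKM against 7.03, 9.8 and 19.7 FPKM (-1.34), a call lost without any 1 of dermal stem cells replicates 1 and 4 and interfollicular dermis replicates 2 and 6 (adjusted p from 0.021 to 0.11 over the 6 libraries left out in turn, and from 0.012 to 0.13 over all settings, in limma).

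Matrix proteases and their inhibitors were higher in 20 of 24 tested genes and lower in 0 (median 2.98). Adamts18, a protease of the ADAMTS family, was at 45.2, 35.9 and 56.6 FPKM against 0.0395, 0.194 and 0.406 FPKM (5.26). Mmp2, a gelatinase, was at 127, 128 and 120.3 FPKM against 2.48, 4.51 and 16.7 FPKM (4.18). Dpep1, a membrane dipeptidase, and Itgbl1, a secreted integrin-like protein, were also among the largest excesses, at log2 fold changes of 6.18 and 6.14.

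Transcription factors of the mesenchyme were higher in 18 of 26 tested genes (median 2.17). Twist2, a factor of dermal fibroblasts, was at 40.1, 40.1 and 55.1 FPKM against 2.05, 0.717 and 0.824 FPKM (4.43). Tbx15, which shapes dermal regions, was at 64.3, 62.8 and 111 FPKM against 2.4, 3.44 and 4.35 FPKM (4.17), and Prrx1, a homeobox factor of limb and skin mesenchyme, was at 86, 74.8 and 118 FPKM against 3.98, 4.43 and 5.61 FPKM (4.03). All 3 factors were below 6 FPKM in each interfollicular library. The 1 listed factor that was lower was Sox9, which epithelial follicle cells also use, at 7.88, 9.96 and 5.9 FPKM against 22.3, 32.5 and 23.7 FPKM (-1.61). Epithelial transcription factors and splicing regulators went the other way, with 22 of 28 lower (median -1.82) where 21.1% of all genes were. The list had 2 members higher, Klf4 and Tcf7l1. Tcf7l1, a TCF factor of follicle stem cells, was at 21.5, 20.6 and 29.4 FPKM against 4.55, 5 and 4.45 FPKM (2.12).

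**Figure D3:**
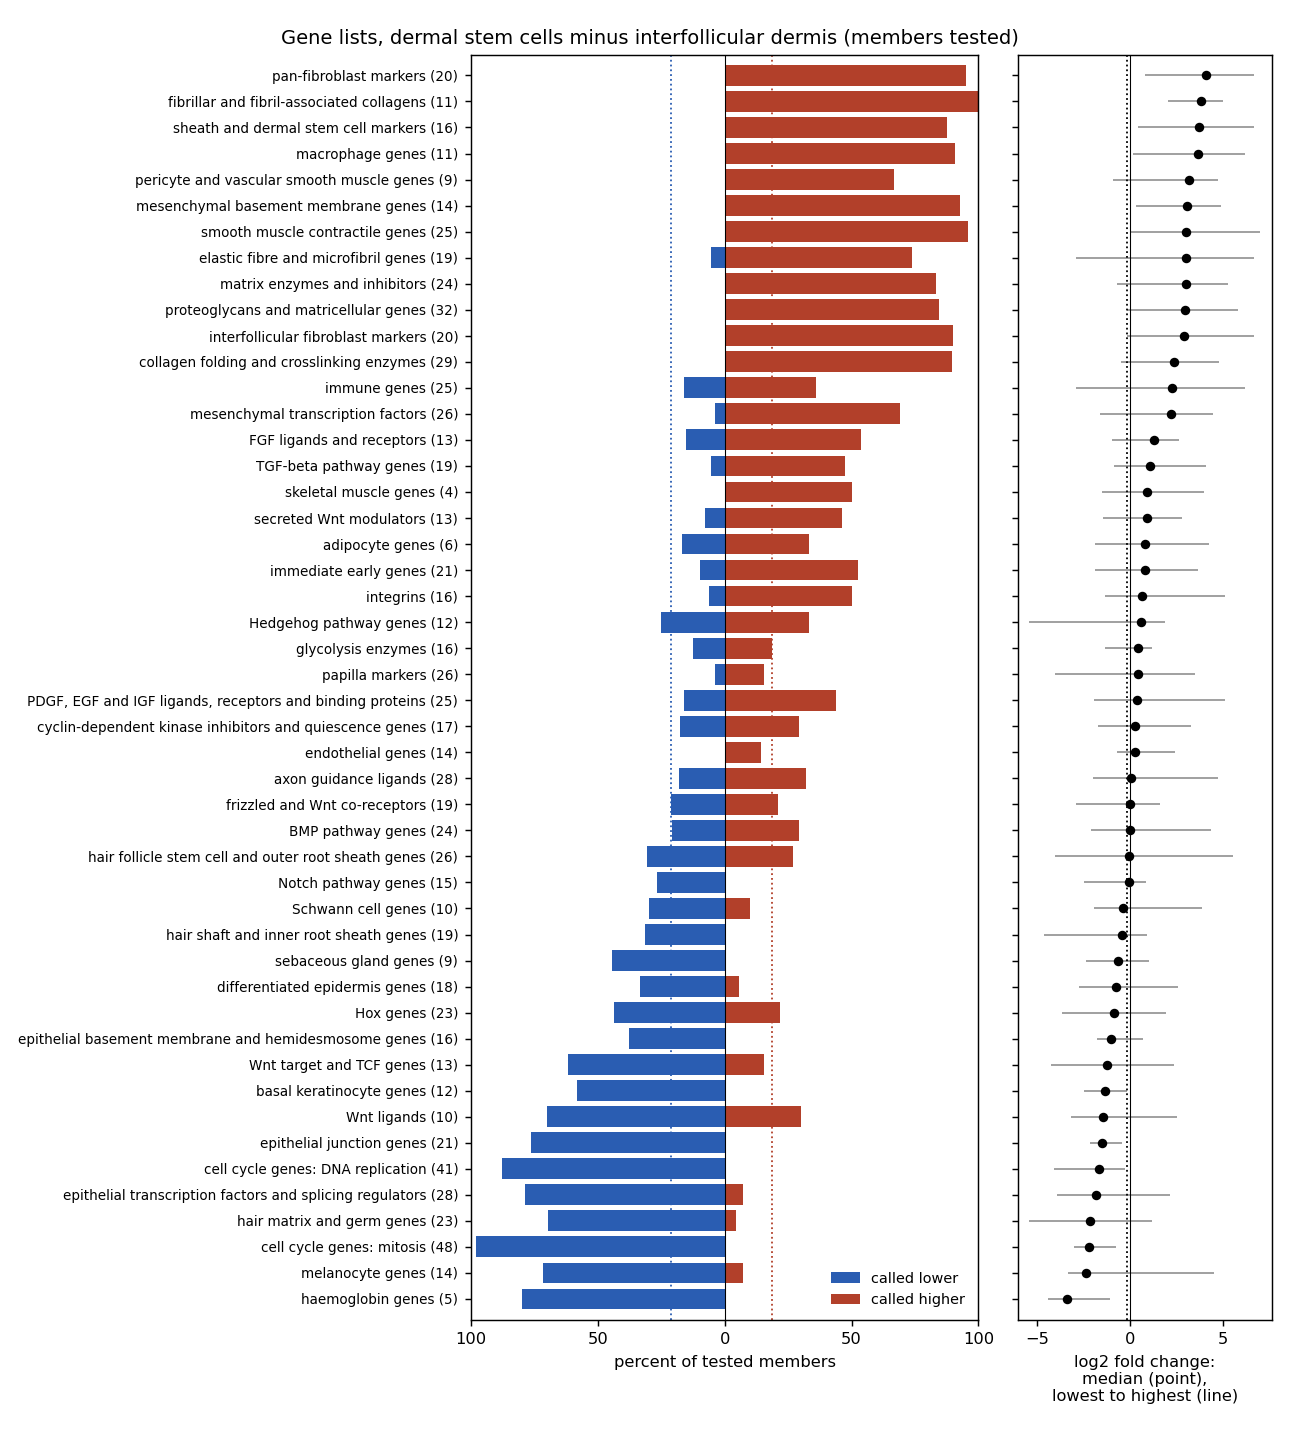
Left, percent of tested members of each gene list called higher (red) or lower (blue) in dermal stem cells, with dotted lines at 18.8% and 21.1%, the shares of all genes tested; right, the median log2 fold change of each list with its lowest and highest member, and a dotted line at the median of all genes. Matrix, contractile and fibroblast lists are mostly red, and cell cycle, epithelial junction and hair matrix lists are mostly blue.

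Shh led the genes with a deficit in dermal stem cells. Shh (chromosome 5, 28456840 to 28467101), the ligand Sonic hedgehog made by hair matrix and germ, was at 0.542, 0.313 and 0.614 FPKM in dermal stem cells and 70.1, 83.7 and 41.5 FPKM in interfollicular dermis. Its log2 fold change was -5.42 (SE 0.31, adjusted p 2.1e-07), the lowest of any gene above 0 FPKM in all 6 libraries. The 15 largest deficits named also hold globins, a defensin and a neuropeptide, given below. Of 23 hair matrix and germ genes tested, 16 were lower and 1 was higher (median -2.14). Hoxc13, the homeobox factor of the hair shaft lineage, was at 1.73, 4.02 and 1.98 FPKM against 49.8, 53.3 and 30.7 FPKM (-3.69). Lef1, the Wnt effector of hair matrix and papilla, was at 3.72, 3.85 and 5.21 FPKM against 105, 94.6 and 61.4 FPKM (-4.04). Msx2, a homeobox factor of the hair matrix, was at 3.83, 10.8 and 8.43 FPKM against 83.5, 91 and 50.8 FPKM (-3.18), and Dlx3 was at 8.02, 18.6 and 7.38 FPKM against 86.1, 148 and 91.7 FPKM (-3.22). The groups did not overlap for any of these 5 genes, and interfollicular dermis lay wholly above for 30.9% of all genes tested. The sums of the hair matrix list, 157, 213 and 222 FPKM against 805, 1046 and 688 FPKM, moved in the same direction as those of the basal keratinocyte list, and the part of epithelial cells in the result was not tested.

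Hair shaft keratins were lower where they were called. Krt35, a hair shaft keratin, was at 14.2, 16.1 and 6.05 FPKM against 365, 306 and 254 FPKM (-4.64, SE 0.49, adjusted p 2.0e-05), and 6 of 19 genes of the shaft and inner root sheath were lower and 0 higher (median -0.44). That count was 3 without dermal stem cells replicate 4. Krt79, of the upper follicle, was at 18, 24 and 13 FPKM against 325, 379 and 245 FPKM (-4.05). Of 21 epithelial junction genes 16 were lower and 0 higher (median -1.52), and 10 were lower without dermal stem cells replicate 1. Epcam, an epithelial adhesion molecule, was at 25.7, 39.6 and 18.4 FPKM against 130.3, 122 and 102 FPKM (-2.10). Of 12 basal keratinocyte genes 7 were lower (median -1.35), and with no filter on low values 4 were. Moxd1, a monooxygenase-like protein, was at 1.39, 2.37 and 2.27 FPKM against 56.6, 62.7 and 44.6 FPKM (-4.21), Defb6, a beta defensin, at 17.7, 23.1 and 10.6 FPKM against 708, 575 and 162 FPKM (-4.54), and Npy, neuropeptide Y, at 1.75, 1.61 and 2.37 FPKM against 233, 83.5 and 11.4 FPKM (-4.44). Npy and Defb6 were highest in interfollicular dermis replicate 1 and lowest in its replicate 6, while Moxd1 was even over the 3. Sox21, a factor of hair cuticle, and Tnfrsf19, a Wnt-responsive receptor of the follicle, had log2 fold changes of -3.93 and -4.26.

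Differentiated epidermis and sebaceous gland genes were less one-sided. In the former list 6 of 18 were lower and 1 higher (median -0.74), and in the latter 4 of 9 were lower and 0 higher (median -0.66). Klk7, a protease of the cornified layer, was at 40.9, 47.2 and 23 FPKM against 303, 251 and 189 FPKM (-2.74). Krt1, a suprabasal keratin, was the member called higher, at 68.4, 92.9 and 72.6 FPKM against 4.31, 10.6 and 34.6 FPKM (2.59, SE 0.81, adjusted p 0.022). That call failed in 3 of the 6 fits that drop a library, those without replicate 2 of the dermal stem cells and replicates 1 or 2 of interfollicular dermis. Over all settings its adjusted p in limma ran from 9.6e-04 to 0.49. Scd1, a lipid desaturase of sebocytes, was at 12.4, 18.6 and 11.4 FPKM against 68.6, 54.9 and 114 FPKM (-2.37). Of 26 genes listed for follicle stem cells and outer root sheath, 7 were higher and 8 lower. The members higher include Postn, Cd34 and Gli1, which mesenchymal cells also express, and those lower include Krt17 and Sox9. Cd34 was at 72.7, 83.7 and 79.1 FPKM against 6.15, 9.08 and 17.5 FPKM (2.85), and Krt17 at 70.7, 132 and 74.8 FPKM against 319, 486 and 288 FPKM (-1.99).

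Within the Hedgehog pathway the ligand was lower and Gli1 and Gli2 were higher. Against the low Shh, Gli1, a transcriptional effector and target of the pathway, was at 33.3, 36.8 and 47.9 FPKM in dermal stem cells and 10.5, 20.7 and 22.2 FPKM in interfollicular dermis (1.15, SE 0.31, adjusted p 0.01). Gli2, the main activator, was at 14.2, 10.5 and 16.9 FPKM against 2.64, 2.65 and 5.3 FPKM (1.74), and Gas1, a co-receptor, was at 9.1, 12.5 and 10.2 FPKM against 2.08, 2 and 2.53 FPKM (1.85). All 3 were above every interfollicular library in each dermal stem cell library, as were 23.6% of all genes tested. Gli3, the main repressor, was lower, at 3.03, 2.81 and 3.62 FPKM against 10.6, 9.86 and 8.87 FPKM (-1.38). In all, 4 of 12 pathway genes were higher and 3 lower (median 0.57). With each library scaled to the same total, Gli1 no longer passed (adjusted p 0.061, where all settings gave 0.0064 to 0.17 in limma).

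Wnt ligands differed by member. Of 10 tested, 7 were lower in dermal stem cells and 3 higher (median -1.49), and 4 were lower without dermal stem cells replicate 1, or interfollicular dermis replicate 1 or 2. Wnt10b, expressed at the start of anagen by follicle epithelium, was at 0.811, 1.56 and 0.892 FPKM against 19.4, 18.2 and 16.2 FPKM (-3.20). Wnt4 was at 1.37, 3.56 and 1.34 FPKM against 12.7, 21.3 and 17.2 FPKM (-2.59). On the other side, Wnt9a was at 5.72, 4.69 and 6.9 FPKM against 0.0963, 0.0708 and 0.398 FPKM (2.51) and Wnt5b at 6.07, 5.64 and 5.38 FPKM against 1.7, 1.05 and 0.409 FPKM (1.75). The ligands higher in dermal stem cells stayed under 13 FPKM in every library. Of 13 genes listed as Wnt targets or TCF factors, 8 were lower and 2 higher (median -1.23). Axin2, a general target of the pathway, was at 2.2, 2.79 and 1.59 FPKM against 14, 12.2 and 15.2 FPKM (-2.22), and the 2 members higher were Tcf7l1 and Tcf7l2.

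Wnt receptors were called about as often as all genes. Fzd10, a frizzled receptor, was at 1.47, 2.67 and 2.09 FPKM against 18.5, 28.6 and 20.4 FPKM (-2.93), and Fzd4 at 8.23, 7.79 and 7.26 FPKM against 1.39, 1.05 and 3.9 FPKM (1.60). Rnf43, which removes frizzled receptors from the cell surface, was at 0.625, 1.49 and 0.679 FPKM against 8.01, 8.07 and 8.52 FPKM (-2.28). In that list 4 of 19 genes were higher and 4 lower, where 18.8% and 21.1% of all genes were, and the count higher was 1 without interfollicular dermis replicate 1 and 2 without replicate 2 of that population or replicate 4 of dermal stem cells. Among 13 secreted modulators 6 were higher and 1, Notum, lower (median 0.91), the latter not called without interfollicular dermis replicate 2. Dkk3, a dickkopf family protein, was at 37.9, 34.4 and 39.9 FPKM against 3.71, 4.83 and 4.96 FPKM (2.81), and Dkk2, a Wnt inhibitor, was at 7.32, 6.75 and 6.49 FPKM against 0.069, 0.317 and 1.61 FPKM (2.35). The groups were separate for both, with dermal stem cells above, as for 23.6% of all genes tested. Kremen2, a receptor for dickkopf proteins, was lower, at 0.543, 0.131 and 0.469 FPKM against 15, 38.2 and 18 FPKM (-4.06).

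BMP pathway genes showed no common direction, with 7 of 24 higher and 5 lower, where 18.8% and 21.1% of all genes tested were. Their median log2 fold change was 0.0, and 2 were lower without dermal stem cells replicate 1. Of the members named here, the antagonist Nog and Fstl1 were higher. Nog, the BMP antagonist noggin, was at 13.1, 9.35 and 25.2 FPKM against 0.166, 2.01 and 0.787 FPKM (3.08) and Fstl1, a follistatin-like protein, at 568, 547 and 966 FPKM against 24.8, 29.1 and 48.4 FPKM (4.31). Bmp7, a ligand, was lower, at 2.96, 3.53 and 2.84 FPKM against 14.1, 22 and 14.8 FPKM (-2.10). For the TGF-beta pathway 9 of 19 genes were higher (median 1.06) and 1 was lower, the receptor Acvr2a, which was not called without replicate 1 or 4 of dermal stem cells or replicate 1 or 6 of interfollicular dermis. Tgfbr2, the type II receptor, was at 78.1, 62.2 and 56.6 FPKM against 4.17, 4.46 and 10 FPKM (3.28), and Ctgf, a matricellular target of the pathway, was at 370.4, 289.8 and 270.1 FPKM against 15.8, 20 and 17.4 FPKM (4.05).

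In the platelet-derived growth factor pathway a ligand was lower and both receptors were higher. Pdgfa, a ligand of Pdgfra, was at 13.4, 14.6 and 8.29 FPKM in dermal stem cells and 36.5, 52.6 and 25.6 FPKM in interfollicular dermis (-1.56, SE 0.35, adjusted p 0.0041). Its receptors were higher, Pdgfra by 3.69 and Pdgfrb by 3.22 on the log2 scale, with Pdgfrb at 24.6, 24.7 and 26.9 FPKM against 1.8, 1.03 and 3.04 FPKM. The binding proteins of insulin-like growth factors were the most abundant members of this list. Igfbp7 was at 2229, 1718 and 2545 FPKM against 91.3, 118 and 121 FPKM (4.28), and Igfbp4 at 1104, 785 and 1210 FPKM against 27.9, 25.5 and 35.3 FPKM (5.07). In all, 11 of 25 genes of this list were higher and 4 lower (median 0.36). Of 13 fibroblast growth factors and receptors 7 were higher and 2, the receptors Fgfr2 and Fgfr3, lower. Fgf18 was at 6.45, 8.13 and 8.39 FPKM against 0.166, 0.703 and 0.375 FPKM (2.62), and Fgfr2, the receptor of epithelial cells, at 19.9, 26.2 and 18.9 FPKM against 42.6, 36.9 and 47.7 FPKM (-0.94). Fgfr3 was not called when any 1 of 5 libraries was left out, all but dermal stem cells replicate 2, and its adjusted p in limma ran from 0.019 to 0.2 over all settings.

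Of 15 Notch pathway genes tested, 4 were lower and 0 higher, where 21.1% and 18.8% of all genes tested were. The median log2 fold change of the list was -0.08, near the -0.15 of all genes, so the list showed no common direction. Notch1, a receptor, was at 7.72, 8.36 and 5.7 FPKM against 32.1, 46.2 and 61.7 FPKM (-2.50), and its ligand Jag2 at 2.53, 7.27 and 1.95 FPKM against 9.52, 14.3 and 24.3 FPKM (-1.86). Axon guidance ligands were mixed, with 9 of 28 higher and 5 lower, beside 18.8% and 21.1% of all genes. The count lower was 3 without dermal stem cells replicate 1 or interfollicular dermis replicate 2. Those higher include Slit2, a repulsive guidance protein, at 40.6, 32.7 and 46.5 FPKM against 0.219, 0.479 and 1.13 FPKM (4.69), and Ntn1, netrin, at 51.4, 43.5 and 55.6 FPKM against 1.79, 3.21 and 3.05 FPKM (3.81). Those lower include Efnb2, a membrane-bound ephrin, at 10.6, 13.3 and 11.5 FPKM against 46.3, 34.9 and 48.8 FPKM (-1.78).

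Hox genes, which record position along the body, differed by cluster. Of 8 Hoxb genes tested, all had a negative log2 fold change and 7 were lower (median -1.52). Of 7 Hoxc genes, 6 had a positive log2 fold change and 3 were higher, while Hoxc13 was lower (median 1.20). Among those 3, Hoxc6 was not called without replicate 1 or 4 of dermal stem cells or replicate 1 or 6 of interfollicular dermis. Its adjusted p in limma ran from 0.023 to 0.071 with each library left out in turn. Hoxb8 was at 0.633, 1.33 and 0.845 FPKM against 13, 14.1 and 9.84 FPKM (-2.78). Hoxc10 was at 5.58, 5.74 and 12.6 FPKM against 0.969, 1.25 and 1.61 FPKM (1.90). Over the 23 Hox genes tested 5 were higher and 10 lower, and 3 were higher without dermal stem cells replicate 4 or interfollicular dermis replicate 1 or 6. All samples were labelled as back skin, and the part of position or of the mix of cells in these differences was not tested.

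Cell cycle genes were lower in dermal stem cells almost without exception. Of 48 mitosis genes 47 were lower and 0 higher (median -2.23), the remaining gene being Bub3, and of 41 DNA replication genes 36 were lower and 0 higher (median -1.65). The summed mitosis list was at 114, 296 and 244 FPKM in dermal stem cells and 1311, 1228 and 902 FPKM in interfollicular dermis. Mki67, the proliferation antigen, was at 3.55, 9.84 and 8.57 FPKM against 60.3, 52.3 and 72.7 FPKM (-3.0, SE 0.32, adjusted p 2.0e-05). Ccna2, a cyclin of S phase and G2, was at 3.35, 12.6 and 8.48 FPKM against 76.3, 62.7 and 42.9 FPKM (-2.86), and Ncapg, a condensin subunit, at 1.53, 4.12 and 3.28 FPKM against 37.4, 30.8 and 18.7 FPKM (-2.92). Dermal stem cells replicate 1 was the lowest library for all 3. E2f2, a transcription factor of S phase entry, was at 0.423, 1.56 and 0.576 FPKM against 8.82, 12.9 and 13.3 FPKM (-2.80). Keratinocyte markers moved in the same direction (sums above), and their part in the result was not tested. With dermal stem cells replicates 1 and 2 both left out, a setting chosen after seeing the data, 37 mitosis and 19 replication genes were lower.

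Mitotic promoters often hold a CHR element, TTTGAA, and CCAAT boxes, both bound by known regulators of G2 and mitosis genes. In the same RefSeq windows, on both strands, TTTGAA was present in 71.4% of the 42 windows of 39 mitosis genes, in 15.8% of the 38 windows of 32 replication genes and in 11.9% of all windows. CCAAT was present in 71.4%, 57.9% and 36.8% of them. The windows of the 3 mitosis genes with TTTGAA and the lowest log2 fold change among those above 0 FPKM in all 6 libraries are shown, since they put the shared letters beside the values. They are Mki67 at chr7:135716330-135716629 (minus strand), Ncapg at chr5:45669675-45669974 (plus strand) and Top2a at chr11:99024140-99024439 (minus strand). Capitals mark TTTGAA and CCAAT, or TTCAAA and ATTGG where the match is on the other strand.
Mki67: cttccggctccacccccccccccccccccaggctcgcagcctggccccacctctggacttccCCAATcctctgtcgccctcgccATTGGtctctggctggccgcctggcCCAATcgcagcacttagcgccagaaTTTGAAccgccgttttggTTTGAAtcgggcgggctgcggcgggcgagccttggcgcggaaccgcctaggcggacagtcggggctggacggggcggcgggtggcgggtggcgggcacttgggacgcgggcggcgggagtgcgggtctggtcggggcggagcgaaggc
Ncapg: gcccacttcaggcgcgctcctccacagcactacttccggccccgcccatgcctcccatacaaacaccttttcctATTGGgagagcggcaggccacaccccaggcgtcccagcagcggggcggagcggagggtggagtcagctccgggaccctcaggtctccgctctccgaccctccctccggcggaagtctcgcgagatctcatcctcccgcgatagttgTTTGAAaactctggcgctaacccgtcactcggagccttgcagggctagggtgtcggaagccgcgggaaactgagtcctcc
Top2a: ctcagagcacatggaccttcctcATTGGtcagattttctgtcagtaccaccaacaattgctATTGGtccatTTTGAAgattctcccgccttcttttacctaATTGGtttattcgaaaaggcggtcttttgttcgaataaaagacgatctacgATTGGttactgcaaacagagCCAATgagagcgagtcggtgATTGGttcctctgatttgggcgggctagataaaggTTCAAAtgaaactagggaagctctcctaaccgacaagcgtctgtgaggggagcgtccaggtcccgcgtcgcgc
Top2a, named for its motif after its values were seen, is the topoisomerase of dividing cells and was at 3.63, 14.7 and 13.5 FPKM against 82, 70.2 and 56.6 FPKM (-2.78 on the log2 scale). Cdc20, an activator of the anaphase-promoting complex, was listed at 0 in all 3 dermal stem cell libraries and at 8.8, 6.37 and 5.6 FPKM in interfollicular dermis, so no fold is given. Positions of the letters relative to the start differ from gene to gene, and a match is a description of the sequence only.

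Inhibitors of the cell cycle did not move as a block. Of 17 tested 5 were higher and 3 lower (median 0.25), where 18.8% and 21.1% of all genes tested were. Cdkn1c, the kinase inhibitor p57, was at 80.2, 86 and 58 FPKM against 7.22, 9.16 and 4.5 FPKM (3.27, SE 0.41, adjusted p 7.1e-05). The 3 members lower were Rb1, Rbl1 and E2f4, of the retinoblastoma pathway, with Rbl1 at 1.78, 5.09 and 3.38 FPKM against 14.2, 11.2 and 14.3 FPKM (-1.75). E2f4 was not called without interfollicular dermis replicate 2 (adjusted p 0.055, where all settings gave 0.0017 to 0.13 in limma).

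Markers of other cells varied between libraries of the same population. Macrophage genes were called higher in 10 of 11 (median 3.65), but their sum ran from 3316 FPKM in dermal stem cells replicate 1 and 1289 FPKM in replicate 2 to 83 FPKM in replicate 4, against 25.6, 29.4 and 44.7 FPKM in interfollicular dermis. C1qb, a complement subunit made by macrophages, was at 714, 271 and 19.8 FPKM against 0.662, 1.28 and 1.79 FPKM (6.18, SE 1.0, adjusted p 4.7e-04), and Pf4, Folr2, Ccl8, Wfdc17 and C1qc showed the same order of dermal stem cell libraries. Ccl8, a chemokine, was at 2589, 519 and 19.4 FPKM against 4, 4.14 and 6.58 FPKM (5.70). No listed macrophage gene was at 0 in all 3 libraries of either population. With dermal stem cells replicates 1 and 2 both left out, 1 of the 11 was called, and the lone library was taken to vary like the other groups. In the same 3 dermal stem cell libraries the contractile list summed to 4638, 5013 and 4853 FPKM. The fibrillar collagen list summed to 6322, 6440 and 8331 FPKM. The part of macrophages in other differences was not tested.

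**Figure D4:**
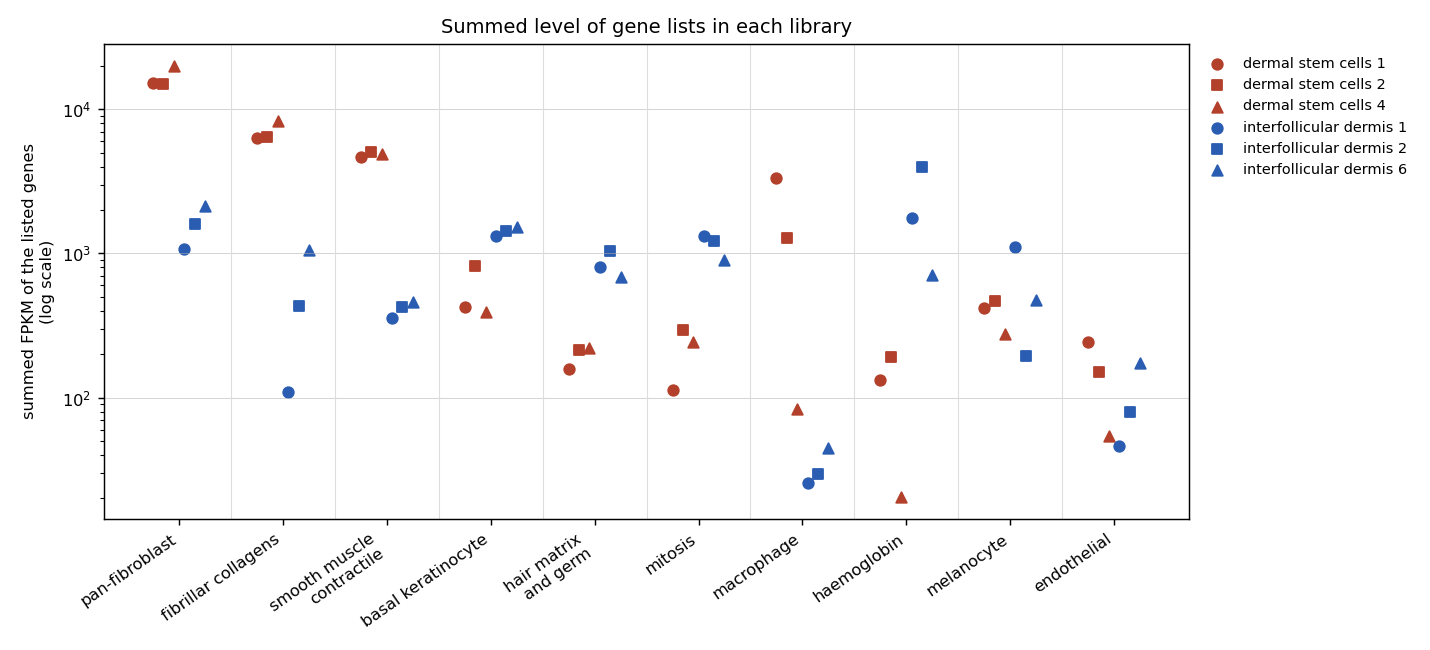
Summed FPKM of the listed genes (log axis) in each of the 6 libraries for 10 gene lists, red for dermal stem cells and blue for interfollicular dermis, with a marker shape for each replicate. Fibroblast, collagen and contractile sums are alike over the red points, while macrophage sums span 83 to 3316 FPKM among them, and haemoglobin sums are highest in the blue points.

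Haemoglobin genes were more abundant in interfollicular dermis, with 4 of 5 lower in dermal stem cells (median -3.40) and sums of 133, 191 and 20.4 FPKM against 1753, 3944 and 705 FPKM. Hbb-bs, a beta globin, was at 113, 155 and 17.9 FPKM against 1505, 3327 and 555 FPKM (-4.34, SE 1.25, adjusted p 0.015), and was not called without replicate 4 of dermal stem cells or replicate 2 of interfollicular dermis. Over all settings its adjusted p in limma ran from 0.0031 to 0.29. Melanocyte genes were lower in 10 of 14 and higher in 1 (median -2.39), and 7 to 12 were lower with each library left out in turn. Their sums, which include the Ednrb given below, overlapped, at 416, 464 and 274.8 FPKM against 1101, 194 and 474.5 FPKM. Dct, a pigment enzyme, was at 20.9, 29.9 and 4.56 FPKM against 356, 58 and 153 FPKM (-3.25), and Mlana, a melanosome protein, at 13.8, 22.8 and 2.69 FPKM against 259, 53.4 and 97 FPKM (-3.35). Interfollicular dermis replicate 1 was highest for both. Ednrb, the endothelin receptor of melanocyte precursors, went the other way, at 338, 364 and 256 FPKM against 26.9, 6.2 and 12.9 FPKM (4.49, SE 0.40, adjusted p 4.8e-06). Schwann cell genes were lower in 3 of 10, where 21.1% of all genes tested were. That count was 1 without dermal stem cells replicate 4 or interfollicular dermis replicate 1. Pmp22, a myelin protein that fibroblasts also make, was higher, at 406, 247 and 260.2 FPKM against 17.8, 15.2 and 27.4 FPKM (3.86).

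Of 14 endothelial markers 2 were higher and 0 lower, where 18.8% and 21.1% of all genes tested were. Their median log2 fold change was 0.23. The count higher was 1 without dermal stem cells replicate 1 or interfollicular dermis replicate 1 or 2. Their sums overlapped, at 243, 149.9 and 53.8 FPKM against 46.4, 79.5 and 173 FPKM. Among 25 immune genes 9 were higher and 4 lower. Without dermal stem cells replicate 4 these counts were 14 and 2, and 2 were lower without interfollicular dermis replicate 6. The members higher include the macrophage genes above. Those lower include Kit, a receptor of mast cells and melanocytes, at 1.74, 2.88 and 0.394 FPKM against 17.7, 12.1 and 23.6 FPKM (-2.89). Epcam, the epithelial adhesion molecule above, and Cd207 were lower as well. Cd207 was at 6.25, 6.36 and 0.844 FPKM against 13.7, 6.7 and 13.9 FPKM (-1.37). It was not called without dermal stem cells replicate 4 or interfollicular dermis replicate 1 or 6. Xcl1, a lymphocyte chemokine, was at 0.72, 0.277 and 0.593 FPKM against 12.9, 9.65 and 36.5 FPKM (-3.54). Of 6 adipocyte genes 2 were higher. Lpl, lipoprotein lipase, which fibroblasts and macrophages also express, was at 146, 166 and 196 FPKM against 6.41, 4.47 and 16.6 FPKM (4.24). Of 4 skeletal muscle genes 2 were higher, Des and Tnnt3, the latter below 3 FPKM in every library.

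Immediate early genes respond within minutes to growth factors and to tissue dissociation. Of 21 tested 11 were higher in dermal stem cells and 2 lower (median 0.80), and with quantile normalization 7 were higher and 4 lower. The count lower was 1 without replicate 1 or 4 of dermal stem cells or replicate 1 or 6 of interfollicular dermis. Fosb was at 226, 212 and 261 FPKM against 19.5, 30.3 and 97.1 FPKM (2.55), and Klf2 at 88.2, 84.7 and 71.8 FPKM against 3.91, 5.33 and 8.32 FPKM (3.64). Egr3 was lower, at 8.71, 18.4 and 9.77 FPKM against 42.2, 46.8 and 50.6 FPKM (-1.91). Jun overlapped between the populations, at 306, 361 and 279.8 FPKM against 316, 293 and 376 FPKM, with a 95% interval of its log2 fold change of -0.56 to 0.45. With quantile normalization Jun was called lower, at -0.81 (adjusted p 0.036 in limma).

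Other abundant genes differed by less than 2-fold within their error. For 2875 genes the 95% interval of the log2 fold change lay within 2-fold in either direction. The most abundant include Nfkbia, the NF-kappa-B inhibitor, at 732, 758 and 602 FPKM against 546, 692 and 439 FPKM (95% interval -0.25 to 0.92), and Malat1, a nuclear long non-coding RNA, at 331, 373 and 310 FPKM against 261, 339 and 459.7 FPKM (95% interval -0.61 to 0.55). Atf4, a stress response factor, was at 309, 339 and 312 FPKM against 322, 346 and 214 FPKM (95% interval -0.37 to 0.68). The libraries of the populations overlapped for each of these genes. This depended on the scaling, since with quantile normalization the 8 most abundant of them, Jun included, all had a negative log2 fold change, -0.54 to -0.86, and 4 were called lower.

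Some genes were listed at exactly 0. Kdelr3, a retrieval receptor of the secretory pathway, was listed at 0 in all interfollicular libraries and at 40.3, 48.2 and 69.5 FPKM in dermal stem cells, and 7 genes in all had this pattern with at least 10 FPKM in each dermal stem cell library. In the opposite pattern were 5 genes, Polr2b among them, at 0 in dermal stem cells and 27.2, 15.4 and 23.4 FPKM in interfollicular dermis. Polr2b encodes a subunit of RNA polymerase II, which every cell uses, so these zeros can be failed estimates and no fold is given. Gapdh, a glycolytic enzyme that is abundant in most cells, was listed between 0.0992 and 0.47 FPKM in the 6 libraries and was under the filter. Glycolysis counts are thus incomplete. Of 16 glycolysis genes tested 3 were higher and 2 lower, where 18.8% and 21.1% of all genes tested were. The count higher was 0 without replicate 1 of dermal stem cells or replicate 2 of interfollicular dermis. It was 1 without replicate 2 of dermal stem cells or replicate 1 of interfollicular dermis. The count lower was 1 without dermal stem cells replicate 1 or 4 or interfollicular dermis replicate 1 or 2.

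The contrast of papilla with sheath, which shares no library with the one above, was set beside it, with its own values for the same genes. In that contrast 51.5% of the same genes were called, 16.2% higher in papilla and 35.3% lower. Of the 2232 genes higher in dermal stem cells, 1272 were also higher in papilla than sheath (57.0% of the first list and 66.0% of the second). Of the 2508 genes lower, 1933 were lower in papilla as well (77.1% and 46.0%). Both sets of calls came from the same fit over 12 libraries, which shares its estimate of spread. With each contrast fitted on its own 6 libraries, 1188 of 2325 genes higher (51.1%) and 1849 of 2687 genes lower (68.8%) were shared. Over the 11898 genes the 2 fold changes had a Pearson r of 0.677, given as a description. Opposite calls were made for 127 genes, and pigment genes led them. Pmel was named for this contrast, after its values were seen. This gene, a melanosome protein, was lower in dermal stem cells than in interfollicular dermis (log2 fold change -2.51) and higher in papilla than in sheath (6.57), and Dct was the same (-3.25 and 4.72). Tagln showed the reverse, at 5.29 and -1.53. Acta2 had a log2 fold change of 6.53 between dermal stem cells and interfollicular dermis and of -0.30 between papilla and sheath, where it did not pass (adjusted p 0.6 in limma). In the libraries labelled dermal sheath, which had the fibroblast and keratinocyte sums given above, Acta2 was at 35.8, 36.2 and 76 FPKM, below all 3 dermal stem cell libraries.

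**Figure D5:**
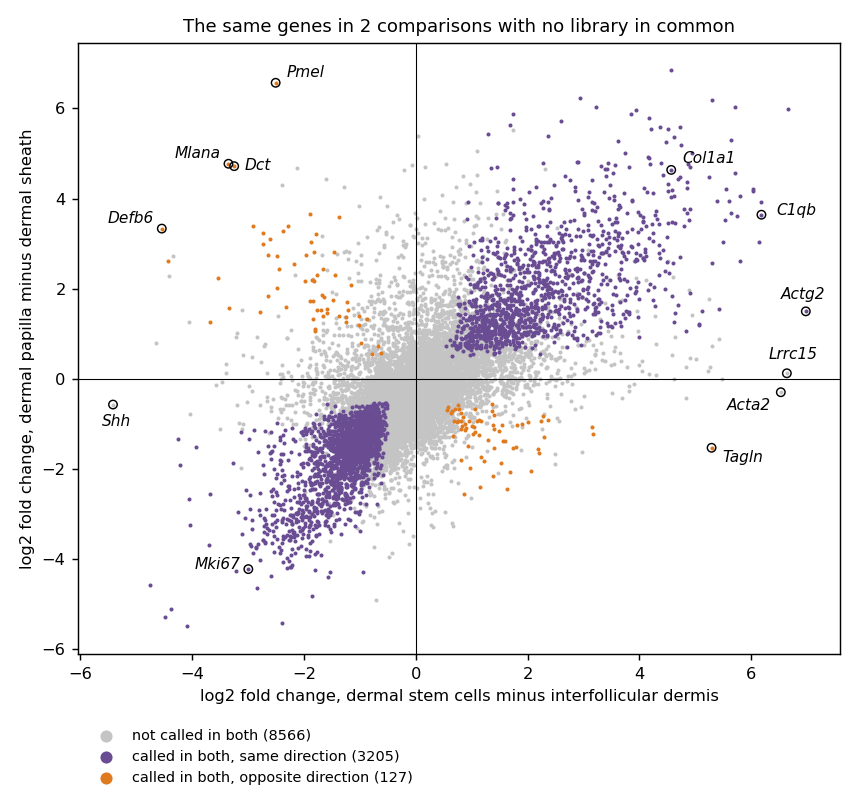
Log2 fold change of each gene in dermal stem cells minus interfollicular dermis (x axis) against dermal papilla minus dermal sheath (y axis), over 11898 genes; purple genes are called in both in the same direction and the 127 orange genes in opposite directions. Acta2, Actg2 and Lrrc15 lie far to the right with little vertical displacement, and pigment genes lie in the upper left.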

How the data were processed

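RNA from sorted cells of 12 samples was sequenced as SOLiD libraries, per the labels' protocols. The authors deposited FPKM values per gene, made with TopHat2 2.0.13, SAMtools and Cufflinks 2.2.1 on mm10, per the submitters' processing notes. The gene annotation is not given in the sources used here. FPKM are not counts, so read depth is unknown and no counting intervals are given; a gene listed at 0 can be a failed estimate.

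Entries with at least 1 FPKM in at least 3 of the 6 libraries compared (11898 of 24692) were put on the log2(FPKM + 1) scale, which understates changes of low genes. They were fitted with limma 3.58.1 (R 4.3.3, mean-variance trend) as 4 group means over 12 libraries, so that the groups share 1 estimate of spread. P-values are two-sided with Benjamini-Hochberg adjustment over all 11898, and 95% intervals are from the same fit. The fit was also run on simulated data with independent errors and far fewer changed genes than were called here. That run does not measure its errors on these data. Replicate numbers come from the sample titles.

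The genes compared and the 50 gene lists were chosen with earlier results of these data known. Genes named are Acta2 and Sox2, lineage markers, the 15 most changed in each direction (never at 0 in the 6 libraries, groups separate, the higher mean at least 5 FPKM), in each list the 4 most changed members called per direction and up to 3 against its main direction, the 8 most abundant with intervals within 2-fold, and examples listed at 0. Exceptions are marked. Alternatives were the pseudocount, filters, scalings, libraries in the fit, a replicate block and each library left out. Promoter windows came from RefSeq (GRCm38.p6) and were found for 9182 of the genes tested.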

Additional observations from a re-analysis of the deposited data

How the results depend on the processing

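Across all settings 0 of the 224 named genes that were called changed direction, and 82 lost their call in at least 1 setting. With each library left out in turn, 3479 to 4581 genes were called. The count of 4740 was within 1.5 times under each other setting but those that follow. Leaving out 2 libraries of a population together was chosen after seeing the data, and the lone library was then taken to vary like the other groups. Without dermal stem cells replicates 1 and 2 together, 2105 genes were called, 1185 higher and 920 lower, 2096 of them by at least 2-fold; 8 junction and 19 replication genes were lower. Without interfollicular dermis replicates 1 and 2 together these were 2072, 1194, 878 and 2001, with 9 junction, 11 replication and 27 mitosis genes lower. The cause was not tested beyond the smaller number of libraries. Without any 1 library, 10 to 15 junction genes were lower, and with no filter 4 basal keratinocyte genes were.

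The genes within 2-fold that were not called depended on the scaling. With quantile normalization Jun, Cox4i1, Cstb and Eif3f became called lower, at -0.81, -0.76, -0.68 and -0.86 (adjusted p 0.036, 0.02, 0.038 and 0.0075 in limma), and with equal totals Eif3f did, at -0.56 (0.049). Others changed sign. With quantile normalization the log2 fold changes of Nfkbia, Atf4 and Hsp90b1 were -0.593, -0.54 and -0.585. With median-of-ratios scaling, Cox4i1, Malat1, Jun and Cstb were at 0.077, 0.12, 0.095 and 0.14. With libraries scaled to the same total, Atf4 and Hsp90b1 were at -0.14 and -0.20. Without interfollicular dermis replicates 1 and 2 together, Cox4i1, Cstb and Eif3f were at 0.44, 0.35 and 0.19. Leaving out 1 library at a time gave Cox4i1 -0.33 to 0.16, Malat1 -0.23 to 0.18, Jun -0.16 to 0.046, Atf4 -0.061 to 0.28, Hsp90b1 -0.0074 to 0.16 and Cstb -0.25 to 0.24.

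With the replicate number as a block, 4771 genes were called, 2443 higher and 2328 lower, and Malat1, Jun, Atf4 and Cstb were at 0.15, 0.12, -0.035 and 0.0038. The deviations of same-numbered libraries correlated at -0.2 for number 1 and 0.054 for number 2. Between libraries of different numbers they correlated at -0.08 and -0.023. So few pairs cannot tell whether same-numbered libraries share an animal or a sort, and this was not tested. FPKM give no read depth, which limits what can be said of genes near 0.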
